A study of Homo sapiens with 6 samples.

Results

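Epithelial acute phase, complement and antimicrobial genes were followed in HCT116 cells, an established human colorectal carcinoma line, after treatment with 5aza. The group has 8 named genes: LCN2, SAA1, SAA2, C3, CFB, SLPI, PI3 and LTF. They were taken from the gene-level expression table by Ensembl identifier, and 7 of the 8 were among its 16715 identifiers. CFB had no row and was not analysed here. The genes were chosen by their role and with their FPKM values in these same control and 5aza libraries known, so their own differences are given as a description, with no test. RNA was sequenced from 3 control libraries and 3 5aza libraries. The 5aza cells received 5 µM of the compound for 48 hours and then fresh medium for another 48 hours. What the control cells were given in its place is not stated, and all cells were at passages 7 to 10. The column codes call the 5aza libraries DAC, an abbreviation often used for the deoxy form of azacytidine; the name 5aza is kept here. Nothing states that the 3 libraries of a group came from separate cultures, so the spread between them may be technical.

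The acute phase response is the change in secreted proteins that follows infection or injury. The liver makes most of it, but epithelia of the gut, airway and skin make their own share under interleukin-1, tumour necrosis factor, interleukin-17 and interleukin-6, through NF-κB, C/EBP factors and STAT3. Lipocalin 2 (LCN2) withholds iron from bacteria by binding their siderophores, and lactoferrin (LTF) binds iron itself. SAA1 and SAA2 are the acute phase serum amyloid A proteins, which bind retinol and lipids. C3 is the central protein of complement and CFB, factor B, makes the alternative pathway convertase with it. SLPI and PI3 (elafin) are inhibitors of neutrophil proteases with a whey acidic protein domain. Azanucleosides are built into DNA and trap the enzymes that copy methylation marks at replication.

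Of the 8 genes, 3 (LCN2, CFB and LTF) had an entry in the RefSeq promoter table (GRCh38.p14). The stretch upstream of the LCN2 start is shown because LCN2 had the highest level of the group after 5aza. It covers the 250 bases before the RefSeq start on the plus strand, chr9:128149203-128149452, and lies inside the GENCODE 29 span of LCN2, which has a start further upstream. Capitals mark a pair of overlapping matches, 1 on each strand, to NF-κB-like letters: GGGA, then any 4 bases, then CC.
LCN2 upstream: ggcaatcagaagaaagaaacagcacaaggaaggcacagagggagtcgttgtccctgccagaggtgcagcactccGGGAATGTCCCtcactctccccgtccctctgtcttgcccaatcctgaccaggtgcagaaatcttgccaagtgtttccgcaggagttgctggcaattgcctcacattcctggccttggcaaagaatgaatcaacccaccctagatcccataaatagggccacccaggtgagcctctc
The plus-strand match reads GGGAATGTCC and lies 176 to 167 bases before the start. Both strands were searched in the 250 bases before each of 35116 RefSeq starts, and 22.6% held at least 1 match. The C/EBP-like letters TTGCNNAA were present once, 143 to 136 bases before the start, against 9.05% of all starts with a match. The STAT-like letters TTCNNNGAA and the letters TATAAA were not in this window; 6.57% and 10.7% of all starts had them. The LCN2 window held 4 CpG dinucleotides, where the median over all starts was 11 and the quartiles 3 and 23. The LTF entries were 3 starts with 5, 10 and 2 CpG. The first had no match to any of the 4 sets of letters, and the second held 1 C/EBP-like match. The third held 1 NF-κB-like and 1 STAT-like match. The CFB entry had 7 CpG, 2 NF-κB-like matches, 1 STAT-like match and 1 match to TATAAA. A match of letters is no evidence of binding, and methylation was not measured here.

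SAA1 and SAA2 are near-identical copies, and their sequences bear on how far their values can be told apart. The last 150 coding bases before the stop codon, positions 217 to 366, are shown because 10 of the 11 differences lie there. They come from GENCODE 29 transcripts on the sense strand of each gene, and capitals mark the bases at which the copies differ.
SAA1: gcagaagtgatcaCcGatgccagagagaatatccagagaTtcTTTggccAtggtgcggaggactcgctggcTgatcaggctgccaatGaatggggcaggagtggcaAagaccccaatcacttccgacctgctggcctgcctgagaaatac
SAA2: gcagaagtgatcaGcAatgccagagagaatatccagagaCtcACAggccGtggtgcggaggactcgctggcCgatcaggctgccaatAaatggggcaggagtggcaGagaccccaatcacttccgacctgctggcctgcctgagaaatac
Over the whole coding sequence the copies differed at 11 of 366 positions, an identity of 97.0%. The longest stretch without a difference ran for 186 bases, from position 44 to 229 counted from the first base of the start codon. Of all 50-base windows, 43.2% were the same in both. No source used here says how reads that fit both copies were counted, so the split between SAA1 and SAA2 is uncertain and their sum is given beside each.

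The summed FPKM of a library was 601916 to 628399 in control and 577735 to 592051 in 5aza, so each 5aza library was below each control library. Across genes, which are not replicates, Pearson's r was 0.992 to 0.993 between libraries of 1 group and 0.976 to 0.977 across groups. The number of identifiers listed at 0 was 1663 to 1761 in control and 755 to 801 in 5aza libraries. FPKM, a fragment count scaled to transcript length and to the mapped fragments of the library, allows levels of different genes to be compared per length, but the depth behind each value is unknown. Of 12360 genes tested, 1310 were higher and 1619 lower in 5aza. This split depends on the scaling: with each library set to the same summed FPKM, 2244 were higher and 779 lower, with the expression-dependent trend in fold change taken out, 1466 and 1175, and with no filter, 1780 and 1461.

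Among the iron-binding proteins, LCN2 (ENSG00000148346, chromosome 9, 128149071 to 128153455, plus strand) stood at 0.611, 0.335 and 0.337 FPKM in control replicates 1 to 3, and at 9.15, 9.52 and 9.73 FPKM in 5aza replicates 1 to 3. The groups were far apart, and the 5aza libraries lay close together. The means were 0.428 ± 0.159 and 9.47 ± 0.294 FPKM (SD, n = 3), a ratio of 22.1. On the log2(FPKM + 0.1) scale the difference was 4.22 (SE 0.19), the 28th largest among the 12360 genes tested. In control libraries 25.4% to 29.4% of identifiers lay below LCN2, and in 5aza libraries 56.8% to 58.0%. LTF (ENSG00000012223, chromosome 3, 46435645 to 46485234, minus strand), the other iron binder, was listed at 0 in every control library and at 0.316, 0.00946 and 0 FPKM in 5aza replicates 1 to 3. Its signal in 5aza thus came almost wholly from 1 library, and the groups overlapped at 0.

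The serum amyloid A genes lie 17.5 kb apart, start to start, on opposite strands of chromosome 11. SAA1 (ENSG00000173432, 18266174 to 18269977, plus strand) was listed at 0, 0.197 and 0 FPKM in control replicates 1 to 3, and at 3.91, 2.51 and 3.26 FPKM in 5aza replicates 1 to 3. SAA2 (ENSG00000134339, 18239223 to 18248643, minus strand) was listed at 0 in all 3 control libraries, and at 2.33, 0.817 and 1.72 FPKM in 5aza replicates 1 to 3. Both genes were therefore near or at 0 in control cells, and present in each 5aza library. The log2 difference of SAA1 was 4.51 (SE 0.43) and the ratio of its means 49.3, with a control mean that rests on control replicate 2 alone; without that library the log2 difference was 5.03. SAA2 has no fold change, since its control values are all 0. The sum of both was 6.24, 3.33 and 4.98 FPKM in 5aza replicates 1 to 3, against at most 0.197 FPKM in control libraries. SAA1 made up 62.7%, 75.4% and 65.5% of that sum in 5aza replicates 1 to 3. Both copies were highest in 5aza replicate 1 and lowest in 5aza replicate 2, an order that LCN2 and C3 did not share. Their spread was wider than that of LCN2: the coefficient of variation over the 5aza libraries was 21.7% for SAA1 and 46.9% for SAA2, against 3.10% for LCN2. GENCODE places the read-through gene SAA2-SAA4 over SAA2 on the same strand, and neither it nor SAA4 was analysed here.

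In the complement pathway, C3 (ENSG00000125730, chromosome 19, 6677704 to 6730562, minus strand) stood at 0.156, 0.208 and 0.171 FPKM in control replicates 1 to 3, and at 1.15, 1.33 and 1.099 FPKM in 5aza replicates 1 to 3. The groups did not overlap, and 5aza replicate 2 was the highest library. The means were 0.178 ± 0.0269 and 1.19 ± 0.124 FPKM (SD, n = 3), a ratio of 6.69 and a log2 difference of 2.22 (SE 0.20). The annotated span of C3 overlaps that of GPR108, a membrane protein gene on the same strand, which had means of 25.7 and 27.4 FPKM and did not pass the test (limma adjusted p = 0.346).

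The protease inhibitors stayed low in both groups. SLPI (ENSG00000124107, chromosome 20, 45252239 to 45254564, minus strand) was at 0.0909, 0.0985 and 0 FPKM in control replicates 1 to 3, and at 0.185, 0.190 and 0.274 FPKM in 5aza replicates 1 to 3. Each 5aza library was above each control library, but at no more than 0.274 FPKM. PI3 (ENSG00000124102, chromosome 20, 45174876 to 45176544, plus strand) was listed at 0 in all 6 libraries.

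**Figure D1:**
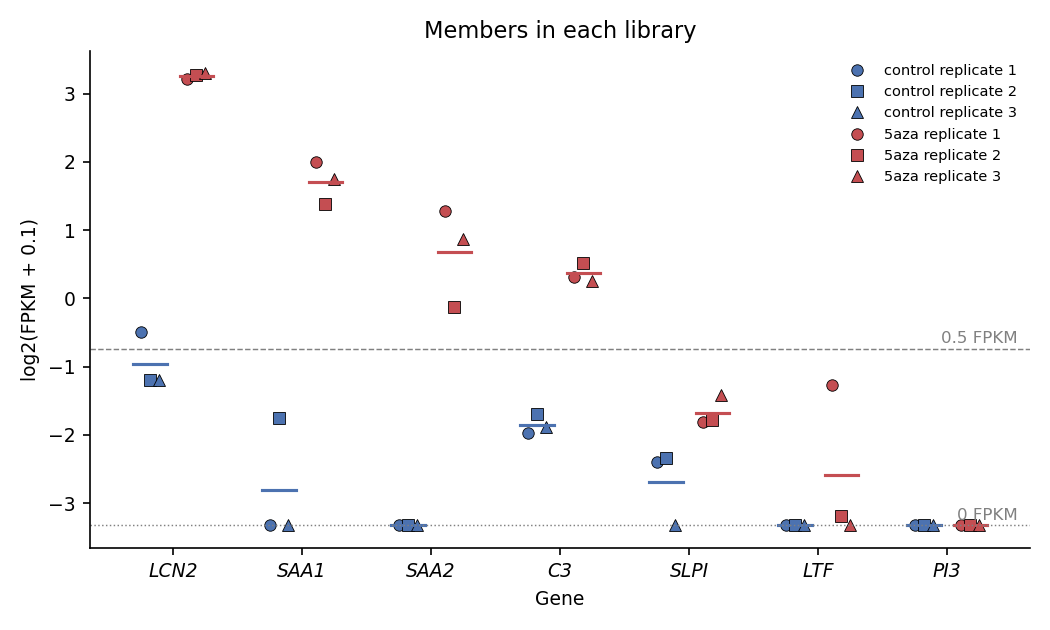
Level of each measured gene as log2(FPKM + 0.1) in every library, with 1 point per library, a shape per replicate and a line at the mean of the log2 values of 3 libraries. The 5aza points of LCN2, SAA1, SAA2 and C3 lie above the 0.5 FPKM line, whereas those of SLPI, LTF and PI3 lie below it in all 6 libraries.

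The order of the levels was the same in each 5aza library at the top: LCN2, then SAA1. Below these, SAA2 (0.817 to 2.33 FPKM) and C3 (1.099 to 1.33 FPKM) overlapped, and so did SLPI (0.185 to 0.274 FPKM) and LTF (0 to 0.316 FPKM), with PI3 last. Over all 7 genes the summed level was 0.735 ± 0.196 FPKM in control and 15.8 ± 1.34 FPKM in 5aza libraries (SD, n = 3). LCN2 made up 53.7% to 66.2% of that sum in 5aza libraries.

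Of the 7 measured genes, 4 reached the filter for testing of at least 0.5 FPKM in at least 3 libraries: LCN2, SAA1, SAA2 and C3. SAA1, SAA2 and C3 did so only because of their 5aza libraries, since all their control values were under 0.5 FPKM. The limma fit over all genes marks these 4 as higher (adjusted p under 0.05), as it does 10.6% of all genes tested. Their choice from this comparison had fixed this, and for 3 of them the filter also ensured that the groups did not overlap. The marking is thus no test of the genes and nothing is read from it. The groups did not overlap for those 4 and for SLPI, 5aza being higher, which was so for 19.6% of genes tested, 26.6% of those under the filter and 21.4% of all 16627 identifiers with a value above 0. The reverse held for 1.69% of those under the filter. The filter itself favours such genes: of 341 tested genes with a control mean under 0.5 FPKM, 200 met it only because of their 5aza libraries, and 203 were called higher and 0 lower. The sizes of the differences depend on the pseudocount: with 0.01 in place of 0.1, the log2 difference of SAA1 was 6.86, and with 1 it was 1.98 for SAA1 and 0.90 for C3.

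Other genes of the same roles were taken from a list of 80 acute phase, complement and antimicrobial genes, of which 57 had values and 21 a level that allowed a test. This list and the lists of partners and inducers below were drawn up with earlier results of these data known. The shares of all genes set beside their counts are therefore no test of the lists. The limma test called 7 of them higher and 0 lower, with 14 left uncalled (adjusted p under 0.05), against 10.6% of all genes tested rising and 13.1% falling; at an unadjusted p under 0.05, 10 were higher and 1 lower. With a filter of 1 FPKM in 3 libraries 4 were higher. Their median log2 fold change was 0.37, where that of all genes tested was -0.01. SERPINA3, LRG1 and ORM2, 3 of the 7 that rose, met the filter only because of their 5aza libraries, so their groups could not overlap. They remain in the counts and the median, and their p-values are given as a description.

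Of 6 acute phase genes tested, 4 rose and 0 fell, against 10.6% and 13.1% of all genes tested. Of these 4, SERPINA1 alone did not depend on its 5aza libraries to meet the filter. SERPINA3, the antichymotrypsin gene, was at 0.120, 0.115 and 0.395 FPKM in control replicates 1 to 3 and at 1.15, 1.03 and 1.62 FPKM in 5aza replicates 1 to 3 (log2 fold change 2.23, SE 0.36, limma adjusted p = 0.00476). LRG1, a secreted leucine-rich glycoprotein, rose from 0.270 to 1.15 FPKM. SERPINA1, the antitrypsin gene, was well above the filter in both groups: it was at 1.65, 2.23 and 1.86 FPKM in control and 5.18, 6.02 and 5.66 FPKM in 5aza replicates 1 to 3 (log2 fold change 1.52, SE 0.12, limma adjusted p = 2.77e-04). ORM2, an orosomucoid gene outside the naming rule and chosen after seeing its values, had means of 0.197 and 0.665 FPKM. It was called higher (limma adjusted p = 0.0156), but not without 5aza replicate 2 (limma adjusted p = 0.0530) and under quantile normalization (0.132). Its near-identical copy ORM1 (0.452 and 0.861 FPKM) did not pass, and reads may have been split between the copies. The plasma heme scavenger gene HPX (5.51 and 6.28 FPKM) did not pass either. The haptoglobin gene HP and the fibrinogen genes FGA, FGB and FGG, all made by hepatocytes, reached at most 0.188 FPKM in any library.

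Of 10 complement genes tested, 1 rose and 0 fell, near the 10.6% of all genes tested that rose; at an unadjusted p under 0.05, 3 were higher and 1 lower. CD59, which blocks the membrane attack complex on the cell's own surface, was at 73.9, 79.0 and 75.2 FPKM in control and 98.1, 98.3 and 99.3 FPKM in 5aza replicates 1 to 3 (log2 fold change 0.37, SE 0.033, limma adjusted p = 4.08e-04). The groups were separate, with a difference small beside that of C3. The other surface regulators CD46 (42.4 and 45.0 FPKM) and CD55 (15.2 and 17.4 FPKM) did not pass. Factor D, the protease that cleaves factor B and is encoded by CFD, was at 95.0 and 88.1 FPKM and did not pass (limma adjusted p = 0.216). C2, whose annotated span overlaps CFB on the same strand, ran from 0.1495 to 1.11 FPKM in control and from 0.406 to 1.38 FPKM in 5aza libraries and did not pass. C4A, C4B and C5 reached at most 0.138 FPKM in any library.

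Of 5 antimicrobial and antiprotease genes tested, 2 rose and 0 fell, against 10.6% and 13.1% of all genes tested, and at an unadjusted p under 0.05 the counts were 3 and 0. WFDC3, of the same protein family as SLPI and PI3, had means of 0.471 and 1.07 FPKM (log2 fold change 1.07, SE 0.24, limma adjusted p = 0.0168), with its rise no longer called without 5aza replicate 2 (0.0560) or 5aza replicate 3 (0.0579) and under quantile normalization (0.0638). NOS2, the inducible nitric oxide synthase, had means of 2.29 and 3.40 FPKM; its call (limma adjusted p = 0.0457) was lost without control replicate 1 or 2 or any 1 of the 5aza replicates (0.0563 to 0.137) and under 4 other settings. The family member WFDC2 ran from 0 to 0.746 FPKM in control and from 0.511 to 1.36 FPKM in 5aza libraries, and did not pass. SERPINB1, an intracellular inhibitor of neutrophil elastase, was at 35.0 and 40.2 FPKM and did not pass (limma adjusted p = 0.0668).

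**Figure D2:**
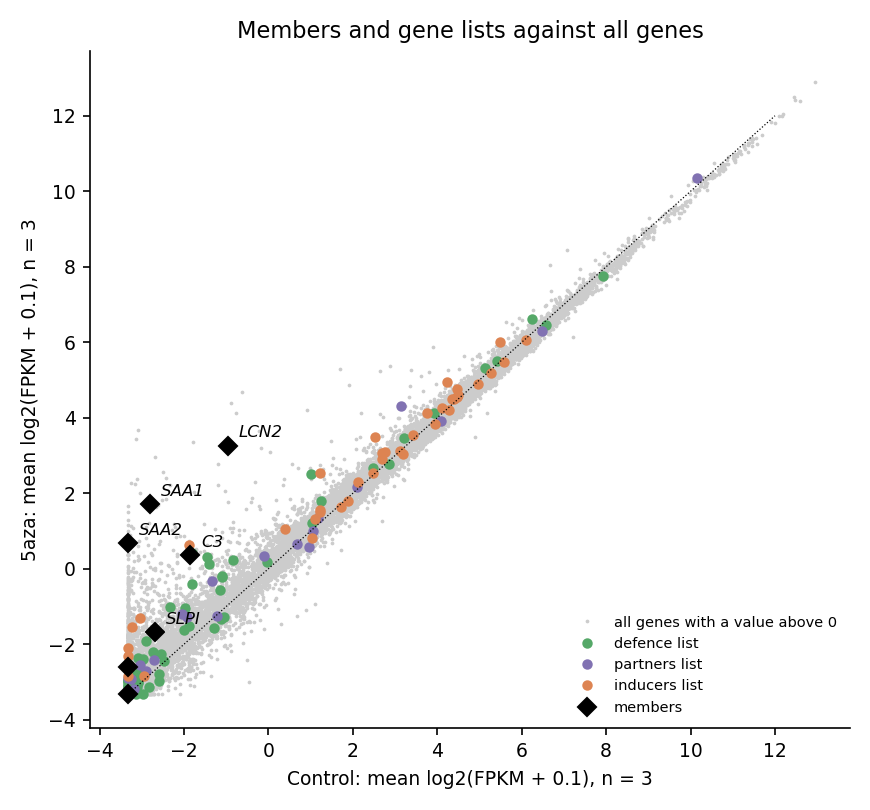
Mean log2(FPKM + 0.1) of 3 control libraries (x axis) against 3 5aza libraries (y axis) for the measured genes of the group (black diamonds), 3 gene lists (coloured) and all identifiers with a value above 0 (grey), with the line of equal levels dotted. LCN2, SAA1, SAA2 and C3, chosen with these values known, lie well above the line at low control levels. Most genes of the lists lie close to it.

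Of 26 receptors, targets and binding partners of the group's proteins, 22 had values and 11 were tested; 2 of the 11 rose and 1 fell, near the shares of all genes tested (10.6% and 13.1%), and their median log2 fold change was 0.08. TGM2, the transglutaminase that can crosslink elafin to matrix, was at 8.995, 7.89 and 9.53 FPKM in control and 20.2, 20.9 and 18.2 FPKM in 5aza replicates 1 to 3 (log2 fold change 1.16, SE 0.083, limma adjusted p = 1.57e-04). ANXA2, annexin A2, rose from 1143 to 1296 FPKM (limma adjusted p = 0.00822). SCARB1, a lipoprotein receptor that also binds serum amyloid A, fell from 90.0 to 79.1 FPKM. Its call (limma adjusted p = 0.0268) was lost without control replicate 1 or 2 or 5aza replicate 1 or 3 (0.0550 to 0.0865), under the 3 other scalings and with no variance trend. The LCN2 receptor gene SLC22A17 (4.24 and 4.42 FPKM) did not pass (limma adjusted p = 0.759), and LRP2, the other one, reached at most 0.0151 FPKM. The neutrophil elastase gene ELANE, target of SLPI and elafin, was listed at 0 in control and reached at most 0.226 FPKM in 5aza libraries. The C3a receptor gene C3AR1 reached at most 0.140 FPKM.

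Of 42 cytokine, receptor and signalling genes that drive or restrain the acute phase in epithelia, 39 had values and 33 were tested. Among those 33 genes, 11 rose, 0 fell and 22 missed the threshold (limma, adjusted p under 0.05), and at an unadjusted p under 0.05 the counts were 17 higher and 1 lower. Over all genes tested, 10.6% were higher and 13.1% lower. The median log2 fold change was 0.15. With each library set to the same summed FPKM, 17 rose. Among cytokine receptors, TNFRSF1B, the second tumour necrosis factor receptor, was at 0.117, 0.166 and 0.243 FPKM in control and 1.41, 1.51 and 1.45 FPKM in 5aza replicates 1 to 3 (log2 fold change 2.52, SE 0.23, limma adjusted p = 4.08e-04); it too met the filter only because of its 5aza libraries. IL1RAP, the co-receptor for interleukin-1, rose from 1.21 to 2.00 FPKM (limma adjusted p = 0.0117). OSMR, the oncostatin M receptor, had means of 17.2 and 19.1 FPKM, with a call (limma adjusted p = 0.0281) lost without control replicate 1 or 2 or any 1 of the 5aza replicates (0.0515 to 0.0883). The receptors IL1R1, IL6R, IL6ST, TNFRSF1A, IL17RA and IL17RC were measured well above the filter and did not pass.

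Among the signalling and transcription factors, 8 of 21 tested rose, where 10.6% of all genes tested did; ZC3H12A, NFKBIA and SOCS3 among them are known as restraints on the response. ZC3H12A, an RNase that degrades cytokine messages, was at 2.35, 2.41 and 1.95 FPKM in control and 5.76, 5.99 and 5.41 FPKM in 5aza replicates 1 to 3 (log2 fold change 1.32, SE 0.10, limma adjusted p = 2.29e-04). RELB, a subunit of NF-κB, rose from 5.65 to 11.1 FPKM, and NFKBIA, its inhibitor IκBα, from 18.8 to 30.9 FPKM. The other 5, named after their values were seen, were NFKB2 (44.6 to 64.2 FPKM), STAT3 (21.9 to 27.2 FPKM), CEBPD (6.34 to 8.25 FPKM), NFKBIZ (6.63 to 8.38 FPKM) and SOCS3 (13.6 to 17.3 FPKM). The NFKBIZ call was lost without control replicate 1 or 5aza replicate 1 or 2 (limma adjusted p = 0.0582 to 0.0597). The SOCS3 call was lost without control replicate 1 or 2 or 5aza replicate 1 or 3 (0.0759 to 0.1001) and with no variance trend. RELA (38.4 and 36.6 FPKM), NFKB1 (15.3 and 14.1 FPKM) and CEBPB (68.4 and 66.4 FPKM) did not pass.

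**Figure D3:**
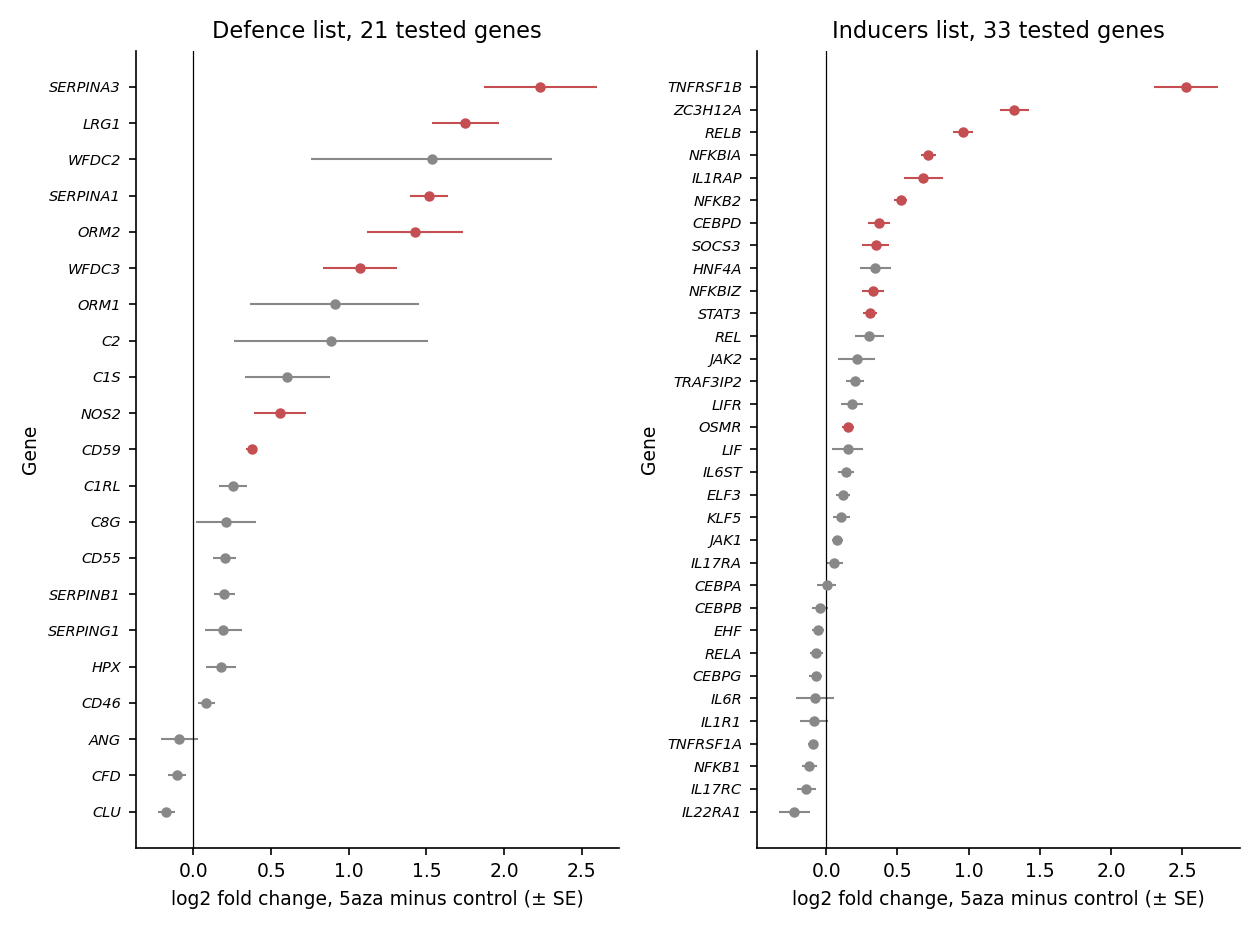
Log2 fold change of log2(FPKM + 0.1), 5aza minus control, with its limma standard error, for the tested genes of the list of related defence genes (left) and of the list of inducing genes (right). Red points passed at an adjusted p under 0.05, 7 of 21 and 11 of 33, and grey points did not.

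The 3 nearest genes in the table on each side of each of the 8 genes, within 500 kb, gave 36 genes outside the group. For 25 of them the level allowed a test: 4 rose, 4 fell and 17 did not pass, against 10.6% higher and 13.1% lower over all genes tested, with a median log2 fold change of 0.01. Around LCN2, BBLN lies 11.2 kb and PTGES2 20.6 kb from its start; BBLN was at 116 and 121 FPKM and did not pass, and PTGES2 fell from 73.0 to 66.0 FPKM. CIZ1, 55.3 kb away, fell from 39.8 to 34.7 FPKM. Both of these falls were called at a limma adjusted p of 0.0488 and 0.0419, and lost their call without any 1 library other than control replicate 3 (0.0906 to 0.144 for PTGES2, and 0.0641 to 0.122 for CIZ1). Around SAA1 and SAA2, the tested genes SAAL1, SERGEF, HPS5, GTF2H1 and LDHA did not pass. LDHA, lactate dehydrogenase A, was at 719 and 724 FPKM only 128 kb from SAA1.

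Next to C3, TNFSF9, a tumour necrosis factor family ligand 200 kb away, rose from 26.5 to 31.6 FPKM (limma adjusted p = 0.00318), and SH2D3A, an adaptor protein gene, rose from 23.7 to 28.9 FPKM (0.00234). TRIP10 (49.96 and 48.4 FPKM) and CD70 (0.553 and 0.897 FPKM) did not pass. Near CFB, ZBTB12 fell from 8.06 to 5.64 FPKM (limma adjusted p = 0.00305), and EHMT2, a histone H3 lysine 9 methyltransferase, from 32.6 to 27.9 FPKM (0.00494). Around SLPI and PI3 on chromosome 20, WFDC5, KCNS1 and RBPJL reached at most 0.154 FPKM in any library. MATN4, also under the filter, ran from 0.157 to 0.517 FPKM in control and from 0.405 to 0.605 FPKM in 5aza libraries. SDC4, the syndecan 4 gene 93.9 kb from SLPI, was at 47.7, 51.0 and 48.2 FPKM in control and 93.0, 92.6 and 95.2 FPKM in 5aza replicates 1 to 3 (log2 fold change 0.93, SE 0.036, limma adjusted p = 4.80e-06). Around LTF, RTP3, LRRC2, CCRL2 and CCR1 reached at most 0.155 FPKM in any library. CCR3, also under the filter, ran from 0.114 to 0.233 FPKM in control and from 0.305 to 0.408 FPKM in 5aza libraries. ALS2CL had means of 2.20 and 2.98 FPKM. The ALS2CL call (limma adjusted p = 0.0437) was lost without any 1 of the 6 libraries (0.0576 to 0.125).

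**Figure D4:**
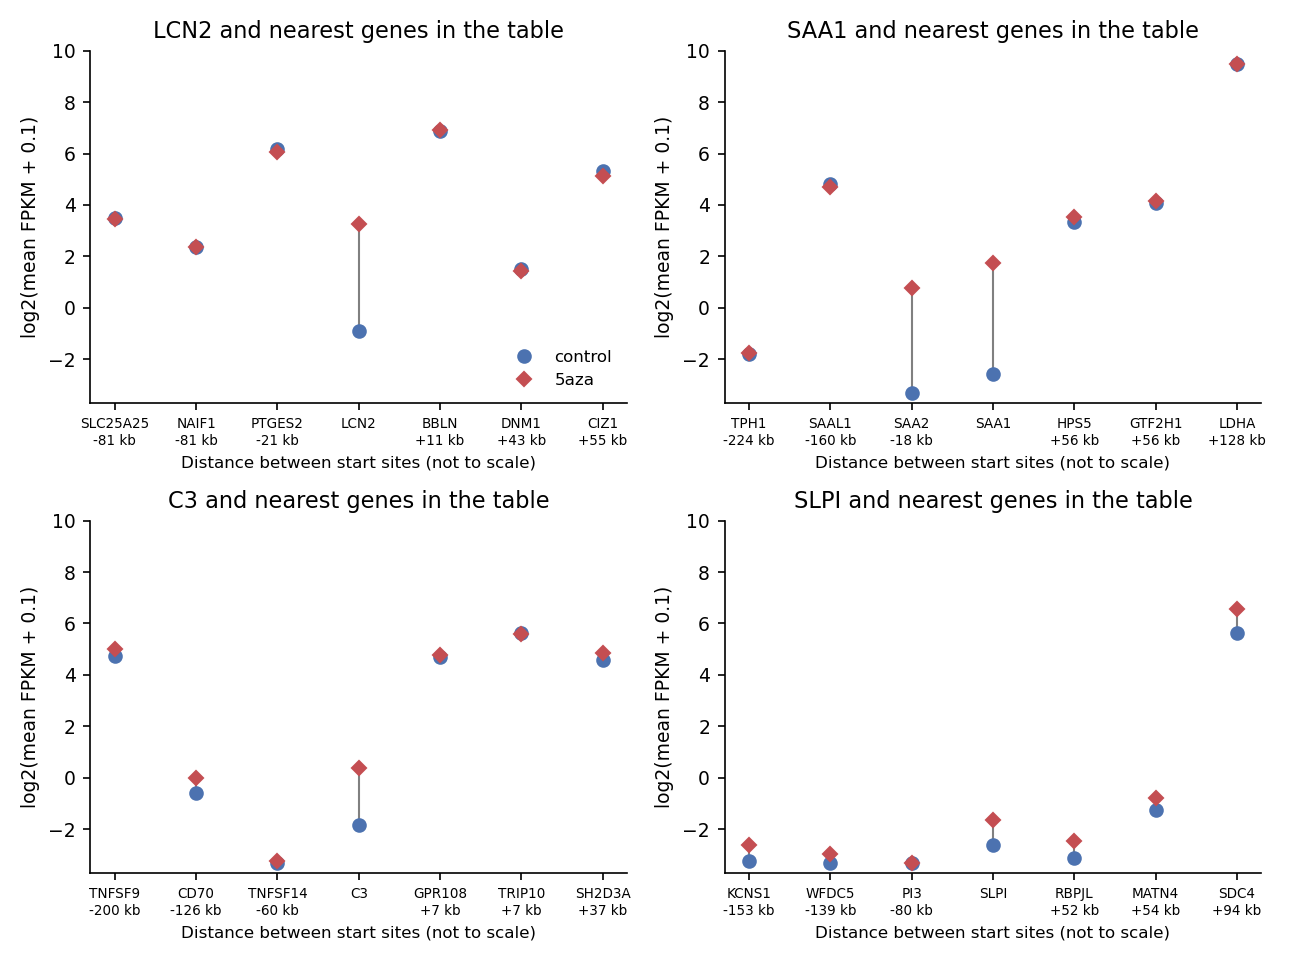
Mean level as log2(mean FPKM + 0.1) in control (blue circles) and 5aza (red diamonds) for LCN2, SAA1, C3, SLPI and the 3 nearest genes in the table on each side, in order along the chromosome, with the distance between start sites below each name. LCN2, SAA1, SAA2 and C3 were chosen with these values known, so their larger differences than those of the other genes shown are a description only. Of the genes around SLPI, SDC4 is the tested one that rose.

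Profiles over the 6 libraries were compared by the Euclidean distance between log2(FPKM + 0.1) values, each centred on its own mean. Nearest to LCN2 were DKK4, a Wnt antagonist (distance 0.37), GJA1, the connexin 43 gene (0.50), and DCAF4L2 (0.57). Nearest to SAA1 were CLDN6, a claudin of embryonic epithelia (0.57), MAEL of the piRNA pathway (1.22) and the collagen gene COL14A1 (1.25). SAA2 was nearest to DCAF4L2 (0.76), the metallothionein gene MT1A (0.82) and TRIM43 (0.85). C3 was nearest to TUSC3 (0.37) and the histone genes H2BC12 (0.37) and H4C15 (0.46). With 2 groups of 3 libraries, this likeness reflects mostly the size of the difference between the groups, and the levels differed: DKK4 was at 3.05 FPKM in 5aza where LCN2 was at 9.47 FPKM, and H2BC12 at 58.8 where C3 was at 1.19 FPKM.

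The labelled cell type was checked by epithelial markers. KRT8, KRT18, KRT19, CDH1, EPCAM and CDX2 were present in every library, at 8.63 FPKM or more, whereas VIL1 and LGR5 reached at most 0.191 FPKM. CDX1 was listed at 0 in control libraries and at 0.292, 0.367 and 0.205 FPKM in 5aza replicates 1 to 3. Over the 9 epithelial markers the summed level was 2346 to 2500 FPKM in control and 2846 to 2918 FPKM in 5aza libraries, most of it KRT8, KRT19 and KRT18. The markers did not move together. Of 6 tested, 4 rose (these 3 keratins and CDH1) and 1 fell, EPCAM, from 166 to 153 FPKM (limma adjusted p = 0.0213). Over all genes tested, 10.6% were higher and 13.1% lower. CDX2 did not pass. As the proteins of the group are also products of liver and neutrophils, markers of those cells are given beside it. Of 6 blood and neutrophil markers with values, MPO and ELANE were listed at 0 in control libraries and reached at most 0.0698 and 0.226 FPKM in 5aza libraries. PTPRC reached at most 0.108 FPKM. Their sum over all 6 was 3.10 to 4.50 FPKM in control and 5.63 to 6.60 FPKM in 5aza, most of it the macrophage and lysosomal gene CD68. CD68 (3.50 and 5.23 FPKM), the only blood marker tested, was called higher (limma adjusted p = 0.0144). Of 6 hepatocyte markers, ALB reached at most 0.139 FPKM, and the sum was 0.200 to 0.565 FPKM in control and 0.667 to 3.97 FPKM in 5aza. Of 5 fibroblast markers, COL1A1 (4.67 and 6.71 FPKM) gave most of a sum of 4.57 to 4.95 FPKM in control and 6.67 to 7.64 FPKM in 5aza libraries. COL1A1, the only fibroblast marker tested, was called higher (limma adjusted p = 0.0032). Among the hepatocyte markers, APOA2 took most of the highest sum, at 3.51 FPKM in 5aza replicate 1 and at most 0.330 FPKM elsewhere. That library also held the highest SAA1, SAA2 and LTF values. Without it the log2 difference was 4.24 for LCN2, 4.37 for SAA1 and 2.24 for C3. The remaining 5aza libraries held SAA2 at 0.817 and 1.72 FPKM and LTF at 0.00946 and 0 FPKM. In bulk RNA, more cells with a transcript and more transcript per cell cannot be told apart.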

How the data were processed

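RNA-seq libraries of HCT116 cells (3 control, 3 5aza) were analysed from 1 gene table. The values are FPKM per gene as deposited by the authors, by the name of the file. Tools named, without roles, by the submitters' processing notes are STAR 2.5.1b, HTSeq 0.6.0 and DESeq2 1.10.1. No source used here gives the program behind the FPKM values or their strandedness. Columns were matched to samples through the sample descriptions. Of 11 identifiers that occur more than once, only the row of highest mean was used. Symbols come from the supplied gene name table and coordinates from GENCODE 29 (GRCh38, a build the notes list), for 15440 identifiers.

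A gene was tested if 3 or more of the 6 libraries reached 0.5 FPKM, as log2(FPKM + 0.1) with limma 3.58.1 in R 4.3.3 (variance trend, two-sided, Benjamini-Hochberg over all 12360 genes), after a check on simulated data. Fold changes on this scale understate those of low genes. The members and lists were chosen with earlier results of these data known. Named genes are all members, up to 3 called genes per direction and list subgroup, and the 3 likest genes per member. Of the 3 neighbours per side, all called ones are named. Other called genes are marked where they appear. Genes without a call were picked from the lists and the neighbours as examples. The 16 alternatives tried are described at the end.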

Additional observations from a re-analysis of the deposited data

How the results depend on the processing

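Over 16 alternatives, the count of 4 called members was within 1.5 times of 4 in each. It was 3 with a filter of 1 FPKM in 3 libraries, under which SAA2 was not tested. LCN2, SAA1 and C3 kept their direction in all. The members were chosen with these same values known, so their counts describe the settings and lend the genes no support. Single genes were followed for 33 genes, all called under the main setting: list genes, neighbours and the 4 called members. Of their 523 values under the alternatives, 456 kept direction and call, 67 lost the call and 0 reversed. As only called genes were followed, no call could be gained. Replicate numbers paired the libraries weakly at most. Deviations of same-numbered libraries correlated at 0.0482, 0.0772 and 0.0677, and those of differently numbered ones at -0.0908 to 0.0195. With the replicate block, 1259 genes were higher and 1673 lower, and 2 of the defence list were lower in place of 0. With equal summed FPKM, 2244 genes were higher and 779 lower, 17 of the inducers rose in place of 11, and 0 of the partners fell. Without a variance trend 1041 genes were lower, and 0 of the partners; 0 partners were also lower under quantile normalization and with the expression trend removed. With a filter of 1 FPKM, 4 of the defence list rose in place of 7. Leaving out 1 library gave 940 to 1521 lower genes (1035 when control replicate 1 was left out, 940 for control replicate 2 and 987 for 5aza replicate 3) and 0 to 2 partners lower. The share of calls that were higher was 44.7%, and 54.9% with no filter. The filter of 1 FPKM tests fewer genes (11507), no filter tests more (16627), and leaving out a library uses fewer samples; for the other settings the cause was not tested. The depth behind the FPKM values is unknown, so values near 0 have no known floor.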

Other observations

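Genes of the lists that stayed under the filter were chosen here after their values were seen. Over all 4267 identifiers under the filter, each 5aza library was above each control library for 26.6%, and the reverse held for 1.69%. Of 34 defence genes under the filter with a value above 0, 8 had 5aza libraries above every control library and 0 the reverse. That share is near the one over all identifiers, and the defence genes named here are examples. S100A7, the antimicrobial psoriasin of skin, was at 0, 0.185 and 0.172 FPKM in control and 0.345, 0.358 and 0.495 FPKM in 5aza replicates 1 to 3. PIGR, which carries IgA across epithelia, was at 0.00679 to 0.0273 FPKM in control and 0.0790 to 0.121 FPKM in 5aza libraries.

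Among the inducers, 6 genes were under the filter with a value above 0, and 4 of them, all cytokines, had 5aza libraries above every control library. IL1A ran from 0.0157 to 0.0301 FPKM in control and from 0.176 to 0.471 FPKM in 5aza libraries. TNF was listed at 0, 0 and 0.0192 FPKM in control replicates 1 to 3 and stood at 0.162 to 0.380 FPKM in 5aza libraries. IL17C and OSM were listed at 0 in all control libraries, with 0.0897 to 0.182 and 0.0379 to 0.182 FPKM in 5aza libraries. IL6 was listed at 0 in control and at 0.0796, 0.0515 and 0 FPKM in 5aza replicates 1 to 3. These levels are low, with unknown depth, and no test was run on them.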
